A study of Saccharomyces cerevisiae BY4741 with 24 samples.

Results

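The genes described here encode the proteins of the large (60S) subunit of the cytoplasmic ribosome of budding yeast. They were taken from the comparison tables by name, as every RPL gene, RPP0, and the A and B genes of RPP1 and RPP2. The naming rule uses no measured value, but it was set with earlier results of these data known. Of 81 such genes in the deposited annotation, 79 had a row among the 1042 features of the tables. RPL8A and RPL15B were not analysed here, and RPL22B had a row in only 3 of the 5 tables, so 78 genes were tested in the other comparisons. RNA came from BY4741, a haploid MATa laboratory strain that as such carries no tag on a ribosomal protein, grown for 5 h in synthetic dextrose medium lacking tryptophan. The 4 groups were untreated cultures, cultures with 1% methanol (the solvent), and cultures with 0.5 mM or 2 mM abscisic acid (ABA) in 1% methanol. ABA is a plant hormone that serves in the study as a chemical dimerizer. Each group had 3 libraries, 12 in all, from 3 colonies grown on different days. The key resources listing of the study names a NAB3-ABI strain for the same data, in which RPL13A is fused to a PYL tag, and no value used here settles which strain it was. If it was that strain, the RPL13A values below are those of a tagged gene.

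The 60S subunit joins amino acids in its peptidyl transferase centre, leads the new chain out through an exit tunnel, and receives elongation factors at the P stalk. In budding yeast most of its proteins are encoded by a pair of genes, A and B, that arose from an ancient whole-genome duplication. The genes are transcribed together with those of the small (40S) subunit under Rap1, Fhl1, Ifh1 and Sfp1, and their transcripts make up a large part of mRNA in growing cells. RPL13A, which encodes a 60S protein that shuttles out of the nucleus during assembly, is the anchor in anchor-away strains, where a nuclear protein is tethered to it and carried to the cytoplasm.

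Because the copies of a pair are alike, their sequences bear on what the counts can tell. The authors' aligner placed a read with several equally good matches at random, so a read that lay wholly in a stretch shared by A and B could be counted for either. The 3 pairs below show the range, from a tail without a difference to scattered differences. Sequences are from the RefSeq R64 genome, read 5′ to 3′ on the coding strand, in lower case with the bases that differ between the copies in capitals. RPL1A (chrXVI:136321-136440, plus strand) and RPL1B (chrVII:255172-255291, plus strand) encode the L1 stalk protein, and their last 120 coding bases held 0 differences. RPL13A (chrIV:309266-309385, plus strand) and RPL13B (chrXIII:550209-550328, minus strand) differed at 4 of the last 120 coding bases. RPL41A (chrIV:130410-130484, minus strand) and RPL41B (chrIV:221727-221801, minus strand), shown over the whole coding sequence of 75 bases without the stop codon, differed at 1 base.
RPL1A: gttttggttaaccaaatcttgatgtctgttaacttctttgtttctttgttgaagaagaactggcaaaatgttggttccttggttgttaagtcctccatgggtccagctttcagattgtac
RPL1B: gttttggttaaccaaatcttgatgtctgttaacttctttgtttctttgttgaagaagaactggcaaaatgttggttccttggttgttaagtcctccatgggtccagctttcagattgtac
RPL13A: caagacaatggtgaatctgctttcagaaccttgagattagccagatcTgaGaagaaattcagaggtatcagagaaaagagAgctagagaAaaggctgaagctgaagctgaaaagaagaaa
RPL13B: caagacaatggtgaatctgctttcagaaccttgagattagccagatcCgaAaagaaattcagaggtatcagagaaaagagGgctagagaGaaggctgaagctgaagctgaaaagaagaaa
RPL41A: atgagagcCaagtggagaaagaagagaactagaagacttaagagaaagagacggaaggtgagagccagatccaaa
RPL41B: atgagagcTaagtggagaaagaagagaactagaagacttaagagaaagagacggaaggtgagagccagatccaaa

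Across the 31 pairs with both copies in the tables (RPP1 and RPP2, whose A and B genes encode different proteins, were kept apart), the coding sequences were between 78.7% and 99.4% identical, with a median of 93.7%. How far reads can be shared was measured as the percent of 50-base windows of the exons of a copy that occur unchanged in the other. The study sequenced paired reads longer than these windows, so the percent can overstate how many reads fit both copies. RPL4 (64.4% of the windows of RPL4A), RPL1 (61.9% of RPL1A) and RPL11 (49.7% of RPL11B) shared most. In 8 pairs (RPL6, RPL16, RPL17, RPL22, RPL27, RPL31, RPL33 and RPL43) no window was shared. The RPL13 copies shared 0.0956% of the windows of RPL13A, as differences between them occur along the whole of their exons. The RPL41 copies shared 7.52% of the windows of RPL41A, although their coding sequences differ at 1 base, because most of the exon length of these very short genes lies outside it.

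The genes have features in common that the choice by name did not use. Of the 81, 53 have an intron (65.4%), against 4.77% of the 6664 nuclear protein-coding genes of the annotation. They are short, with a median of 703 bases of exon against 1320, and lie on 14 chromosomes. The letters ACCCANACA, a core of the Rap1 site, were searched on both strands of the 500 bases before the start codon. They occurred before 29 of the 81 genes (35.8%) and before 3.02% of nuclear protein-coding genes. A match says only that the letters are there. Examples are shown for genes whose values come up below, with the matched letters in capitals, 5′ to 3′ on the strand of the gene, starting 274, 264 and 218 bases before the start codon.
RPP1B: attcctttaaACCCATACAtatcttacac
RPL28: tacaccagggACCCACACAttaccaaaat
RPL13A: ttaatatgtgACCCATACAtttcctgtta

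The 60S genes were among the higher expressed features of these libraries. Levels are normalized counts, that is, read counts divided by the size factor of each library and averaged. No library was analysed singly, as the tables give fitted values only, and group means stand in for the libraries. Each mean was solved from the mean over the 12 libraries and the deposited fold changes, with a 95% interval from the fitted standard errors. The median 60S gene had a mean of 44.0 normalized counts against 18.6 over all features and 45.5 over 56 genes of the 40S subunit. Together the 79 genes held 7.43% of the summed mean count, which was 52277 over all features, and 9.53% of that of protein-coding features. The 40S genes held 5.55%. As these are bulk libraries scaled to one another, fewer cells of a kind and less RNA per cell cannot be told apart. By group, the share of the summed means in the 60S genes was 7.85% in untreated cultures, 8.04% with methanol, 6.72% with 0.5 mM ABA and 7.16% with 2 mM ABA. The summed 60S means were 3909, 4191, 3660 and 3774 normalized counts in that order. A share also depends on the counts of all other features.

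Per kilobase of exon, the scale on which genes are compared here, the 79 genes ran from 8.65 to 555 normalized counts. Their median was 56.8, that of the 40S genes 63.3 and that of nuclear protein-coding features with a row 11.0. Most annotated protein-coding genes had no row and do not enter the value of 11.0. All but RPL22B lay above this last value. Of the 100 highest nuclear protein-coding features per kilobase, 16 were 60S genes and 19 were 40S genes. The fitted spread between libraries, as a coefficient of variation from the dispersion, had a median of 30.3% for the 60S genes and 29.6% for the 40S genes, against 36.6% over all features. It was lowest for RPL1B (21.3%), RPL32 (21.7%) and RPL3 (21.7%) and highest for RPL9B (45.4%), RPL34B (44.0%) and RPL16A (50.1%).

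**Figure D1:**
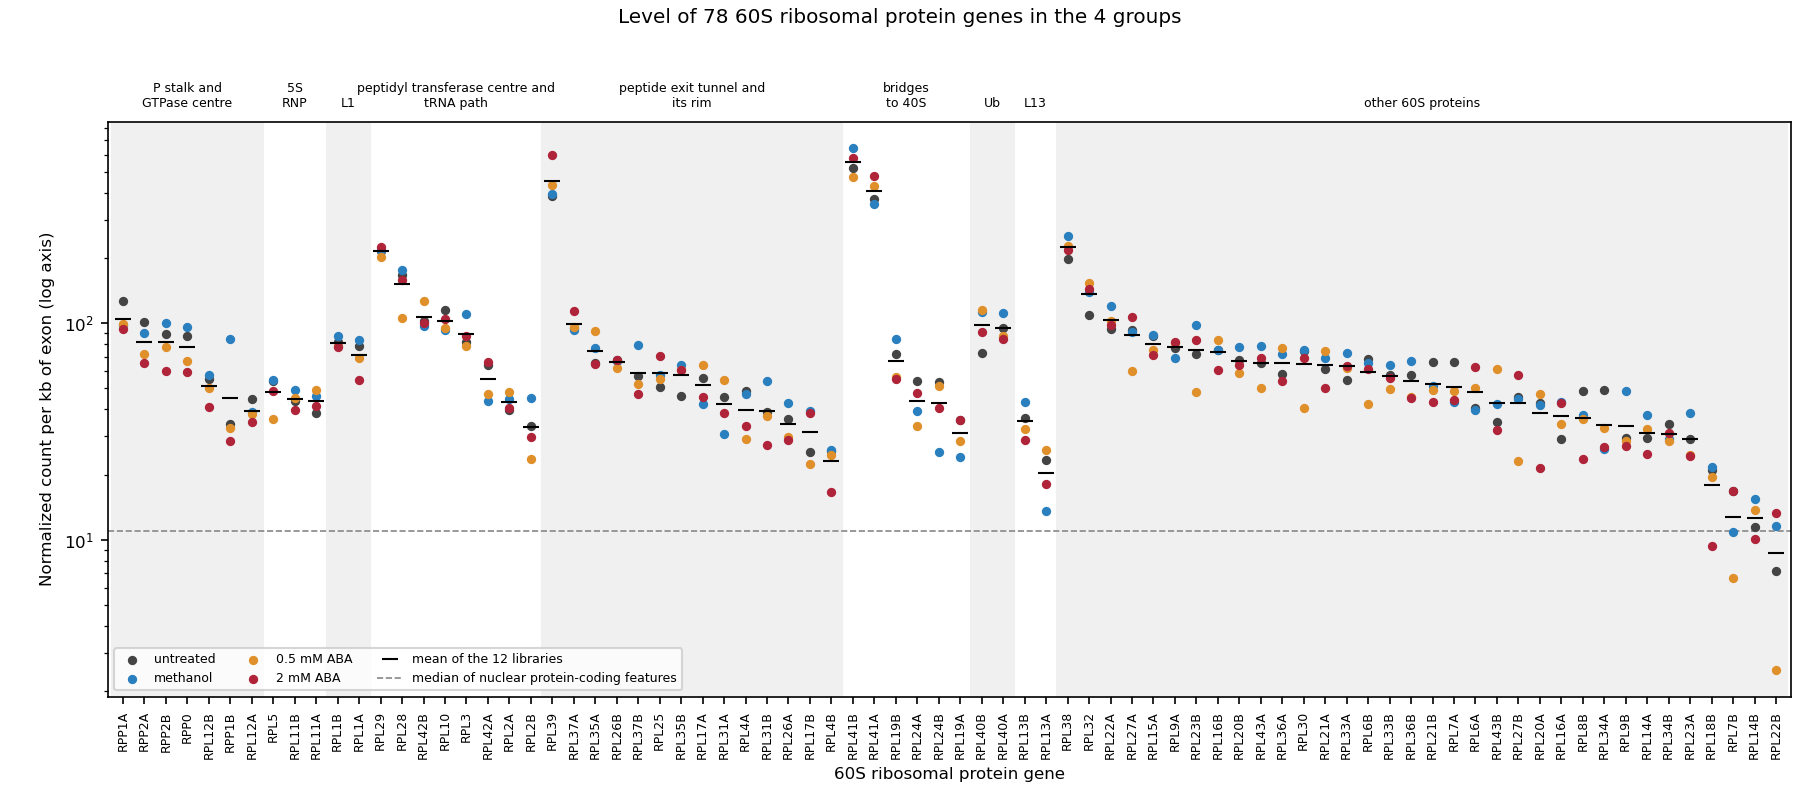
Normalized count per kilobase of exon (log axis) of 78 of the 60S ribosomal protein genes, grouped by the part of the subunit they build. Coloured points are the means of the 4 groups (3 libraries each), black bars the mean of the 12 libraries and the dashed line the median of nuclear protein-coding features, 11.0. RPL41B, RPL39, RPL41A, RPL38 and RPL29 stand highest, between 216 and 555, and RPL22B lies lowest at 8.65. Ub marks the ubiquitin fusion genes and L13 the RPL13 pair.

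The highest levels per kilobase belonged to genes of very small proteins. RPL41B and RPL41A encode the shortest protein of the subunit, which sits at a bridge to the 40S subunit, and had 555 and 409 normalized counts per kilobase. RPL39, whose protein lines the exit tunnel, had 455. RPL38 (224) and RPL29 (216) followed. The 4 highest of these genes held 17.6% of the summed mean count of the 60S genes. In normalized counts, RPL41B had group means of 217 in untreated cultures, 268 with methanol, 195 with 0.5 mM ABA and 240 with 2 mM ABA. RPL39 had 145, 149, 163 and 224 in the same order, and its value with 2 mM ABA was the highest of the 4. At the other end stood RPL22B (8.65 per kilobase), RPL14B (12.7), RPL7B (12.8), RPL18B (17.9) and RPL13A (20.3), each the lower copy of its pair.

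Within the P stalk, the protein arm that draws in the elongation factors, RPP1A had 105 normalized counts per kilobase, RPP2A 82.2, RPP2B 81.7, RPP0 (the base of the stalk) 77.5 and RPP1B 45.0. RPL12B and RPL12A, whose protein lies beside the stalk in the GTPase centre, had 51.1 and 39.2. Around the peptidyl transferase centre, RPL28 (the CYH2 gene of cycloheximide resistance) stood at 152, RPL10, whose protein is among the last to join the subunit, at 102, and RPL3 at 89.4. In the 5S RNP, the particle of 5S rRNA with 2 proteins, RPL5 had 48.3, RPL11B 44.5 and RPL11A 43.9. At the rim of the exit tunnel, RPL25, where the signal recognition particle docks, had 58.7. RPL40B and RPL40A, made as fusions with ubiquitin, had 97.9 and 94.8. The L1 stalk genes, which guide the leaving tRNA, had 81.3 (RPL1B) and 71.6 (RPL1A), although reads in their shared tail could have gone to either.

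The 4 group means of a 60S gene lay closer together, at the median, than those of all features. All features had lower counts at the median, and the part of this in the difference was not tested. The highest group mean of a 60S gene was, at the median, 1.52 times its lowest, against 1.72 times over all features and 1.47 times for the 40S genes. The ratio was over 2 for 9 of the 79 genes (RPL22B, RPP1B, RPL7B, RPL27B, RPL18B, RPL20A, RPL24B, RPL8B and RPL23B), and for 32.7% of all features. The methanol group was the highest for 38 of the 79 genes, against 26.6% of all features, and the 2 mM ABA group the lowest for 32, against 26.7%.

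No 60S gene passed the test in any of the 6 group pairs. A gene was called when its log2 fold change exceeded 1 in either direction with an adjusted p of at most 0.05, from the Wald test of the authors' DESeq2 tables with Benjamini-Hochberg adjustment over all features of the comparison. The percent of all tested features called was 0% for methanol against untreated, 0 for 0.5 mM ABA against methanol, 0.119 for 2 mM ABA against methanol, 0.573 for 0.5 mM ABA against untreated, 0.476 for 2 mM ABA against untreated and 0 for 2 mM against 0.5 mM ABA, so few features of any kind were called. The count of 60S genes with an unadjusted p under 0.05 was 2, 6, 3, 5, 3 and 7 in that order. No other tool was run, as the tables hold no values of single libraries. The comparisons share libraries, so they are given side by side and not as independent measurements. The median 60S gene had a 95% interval of 0.78 to 0.81 log2 units to either side of its fold change, that is 1.71-fold to 1.76-fold, so changes smaller than this were mostly not detectable for single genes. These intervals are not adjusted, and a call asks for more. Larger changes also went uncalled, such as that of RPP1B, at -1.56 on the log2 scale with 2 mM ABA against methanol.

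With methanol against untreated, the comparison that asks what the solvent does, the median log2 fold change of the 79 genes was 0.10, against -0.00 over all features and 0.08 for the 40S genes. Of the 79, 51 had a value above 0. At an unadjusted p under 0.05, 1 gene was higher (2.4% of all features were) and 1 was lower (1.54% of all features). The higher gene was RPP1B, with group means of 20.6 normalized counts in untreated cultures and 50.7 with methanol. This was a log2 fold change of 1.30 (95% interval 0.32 to 2.29, DESeq2 adjusted p = 0.998). The intervals of the group means, 12.6 to 33.5 and 31.5 to 81.7, overlapped only at their ends. The lower gene was RPL24B, of a bridge to the 40S subunit, with 33.6 and 15.9 normalized counts and a log2 fold change of -1.08 (-1.93 to -0.22, DESeq2 adjusted p = 0.998). The 95% interval of 38 of the 79 genes lay wholly inside a 2-fold change in either direction, against 23.3% of all features, which on the whole had lower counts.

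With 0.5 mM ABA against methanol, ABA at the lower dose against its solvent, the median log2 fold change of the 79 genes was -0.17 (all features 0.01, 40S genes -0.24), and 53 of the 79 had a value below 0. By unadjusted p under 0.05, 5 genes were lower (3.45% of all features) and 1 was higher (4.03%). RPL30, whose protein represses the splicing of its own transcript, had 56.0 normalized counts with methanol and 30.3 with 0.5 mM ABA, a log2 fold change of -0.89 (95% interval -1.55 to -0.22). RPP1B had 50.7 with methanol and 19.8 with 0.5 mM ABA, a value of -1.36 (-2.39 to -0.33), and 20.6 in untreated cultures. Its difference from untreated cultures and this one rest on the same methanol libraries. Lower means were also those of RPL23B, at -1.02, and RPL28, at -0.73 on the log2 scale. RPL24B was the gene with the higher mean, 15.9 with methanol and 32.1 with 0.5 mM ABA, at 1.01 (0.12 to 1.90). For all 6 the DESeq2 adjusted p was 0.611. The lowest value among the 60S genes was that of RPL22B, -2.22, from group means of 5.95 and 1.28 normalized counts, too few to read a size from. The interval lay inside 2-fold for 29 of the 79 genes and for 18.5% of all features.

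With 2 mM ABA against methanol, the higher dose against the solvent, the median over 78 genes was -0.21 (all features 0.01, 40S genes -0.10), and 54 of the 78 had a value below 0. At an unadjusted p under 0.05, 3 genes were lower (4.64% of all features) and 0 were higher (5.83%). RPP1B had 17.2 normalized counts with 2 mM ABA against 50.7, a log2 fold change of -1.56 (95% interval -2.57 to -0.55, DESeq2 adjusted p = 0.131), the smallest adjusted p of any 60S gene in the 6 pairs. RPL20A had 22.4 against 43.5, a value of -0.96 (-1.71 to -0.21, DESeq2 adjusted p = 0.262). RPP0 had 68.3 against 109, a value of -0.68 (-1.24 to -0.11, DESeq2 adjusted p = 0.334). The interval lay inside 2-fold for 27 of the 78 genes and for 22.9% of all features.

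With 0.5 mM ABA against untreated, which holds solvent and ABA together, the median over 78 genes was -0.12 (all features -0.00, 40S genes -0.17), and 50 of the 78 had a value below 0. By unadjusted p under 0.05, 4 genes were lower (2.87% of all features) and 1 was higher (5.16%). RPL30 had 55.4 normalized counts in untreated cultures and 30.3 with 0.5 mM ABA, a log2 fold change of -0.87 (95% interval -1.52 to -0.22, DESeq2 adjusted p = 0.253). The other lower genes were RPL7B at -1.34, RPL4A at -0.74 and RPL28 at -0.66. RPL43B was the higher gene, with 24.1 and 42.3 normalized counts and a value of 0.81 (0.02 to 1.60, DESeq2 adjusted p = 0.592). The interval lay inside 2-fold for 27 of the 78 genes and for 29.9% of all features.

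With 2 mM ABA against untreated, which was computed here from the other tables, the median over 78 genes was -0.13 (all features 0.03, 40S genes -0.07), and 52 of the 78 had a value below 0. At an unadjusted p under 0.05, 2 genes were lower (2.5% of all features) and 1 was higher (5.71%). RPL8B had 43.7 normalized counts in untreated cultures and 21.3 with 2 mM ABA, a log2 fold change of -1.04 (95% interval -1.78 to -0.30, Wald p from the DESeq2 estimates, adjusted over 840 features, of 0.268). RPL20A had 44.7 and 22.4, a value of -0.996 (-1.72 to -0.27, adjusted Wald p of 0.287 from the DESeq2 estimates). RPL39 was the higher gene, with 145 and 224 normalized counts and a value of 0.63 (0.03 to 1.22, adjusted Wald p of 0.566 from the DESeq2 estimates). The interval lay inside 2-fold for 31 of the 78 genes and for 26.5% of all features.

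With 2 mM against 0.5 mM ABA, the comparison of the doses, the median over 79 genes was -0.05 (all features -0.02, 40S genes 0.10), and 45 of the 79 had a value below 0. By unadjusted p under 0.05, 5 genes were higher (3.07% of all features) and 2 were lower (2.02%). RPL27B had 17.97 normalized counts with 0.5 mM ABA and 44.8 with 2 mM, a log2 fold change of 1.32 (95% interval 0.27 to 2.37, DESeq2 adjusted p = 0.698), and its copy RPL27A had 37.4 and 66.3, a value of 0.82. RPL30 had 30.3 and 51.2, a value of 0.76 (0.10 to 1.42, DESeq2 adjusted p = 0.807). RPL7B had 6.21 and 15.7, and RPL22B 1.28 and 6.82, both at counts where the error is wide. RPL20A was lower, with 48.9 and 22.4 normalized counts and a value of -1.13 (-1.87 to -0.38, DESeq2 adjusted p = 0.298). RPL43B was also lower, with 42.3 and 22.0 and a value of -0.94. The interval lay inside 2-fold for 25 of the 79 genes and for 21.4% of all features.

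**Figure D2:**
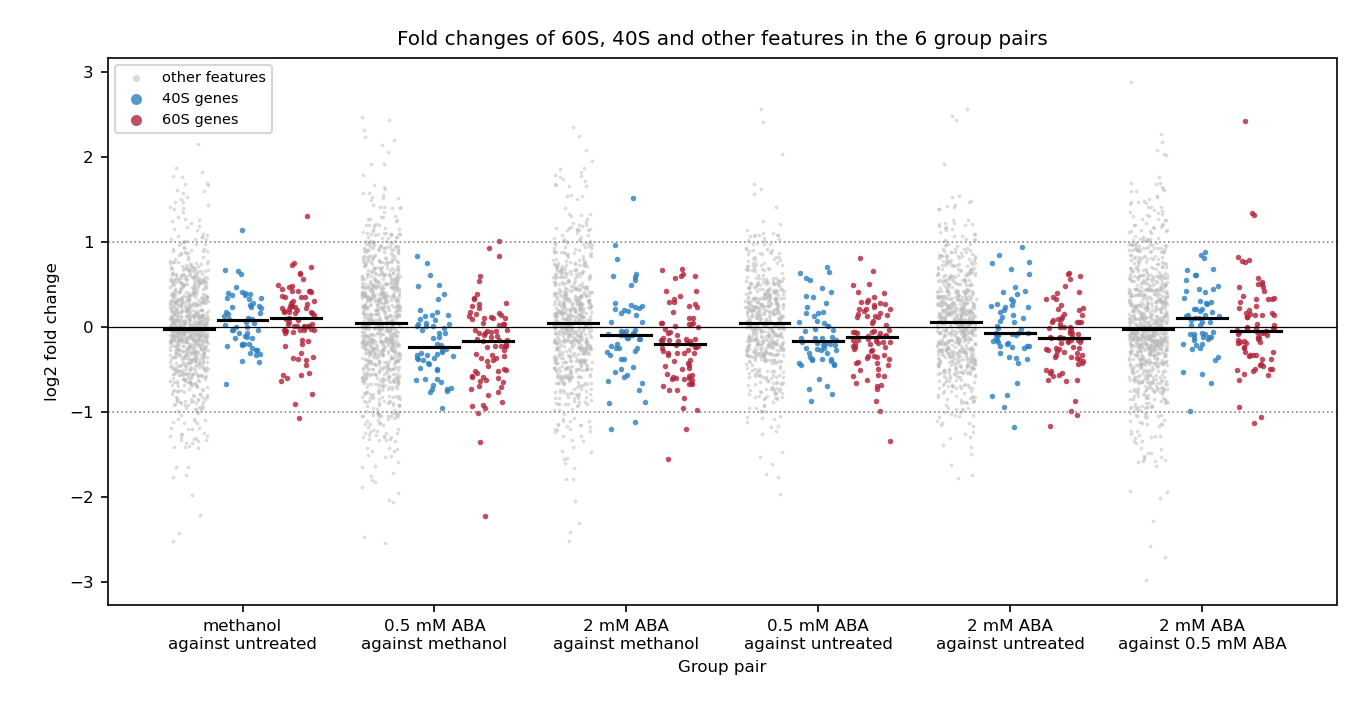
log2 fold change of every feature in the 6 group pairs, as points for 60S genes (red), 40S genes (blue) and other features (grey), with short black bars at the medians and dotted lines at a 2-fold change. The 60S medians lie between -0.21 and 0.10, and 0 of the 60S genes passed the test.

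**Figure D3:**
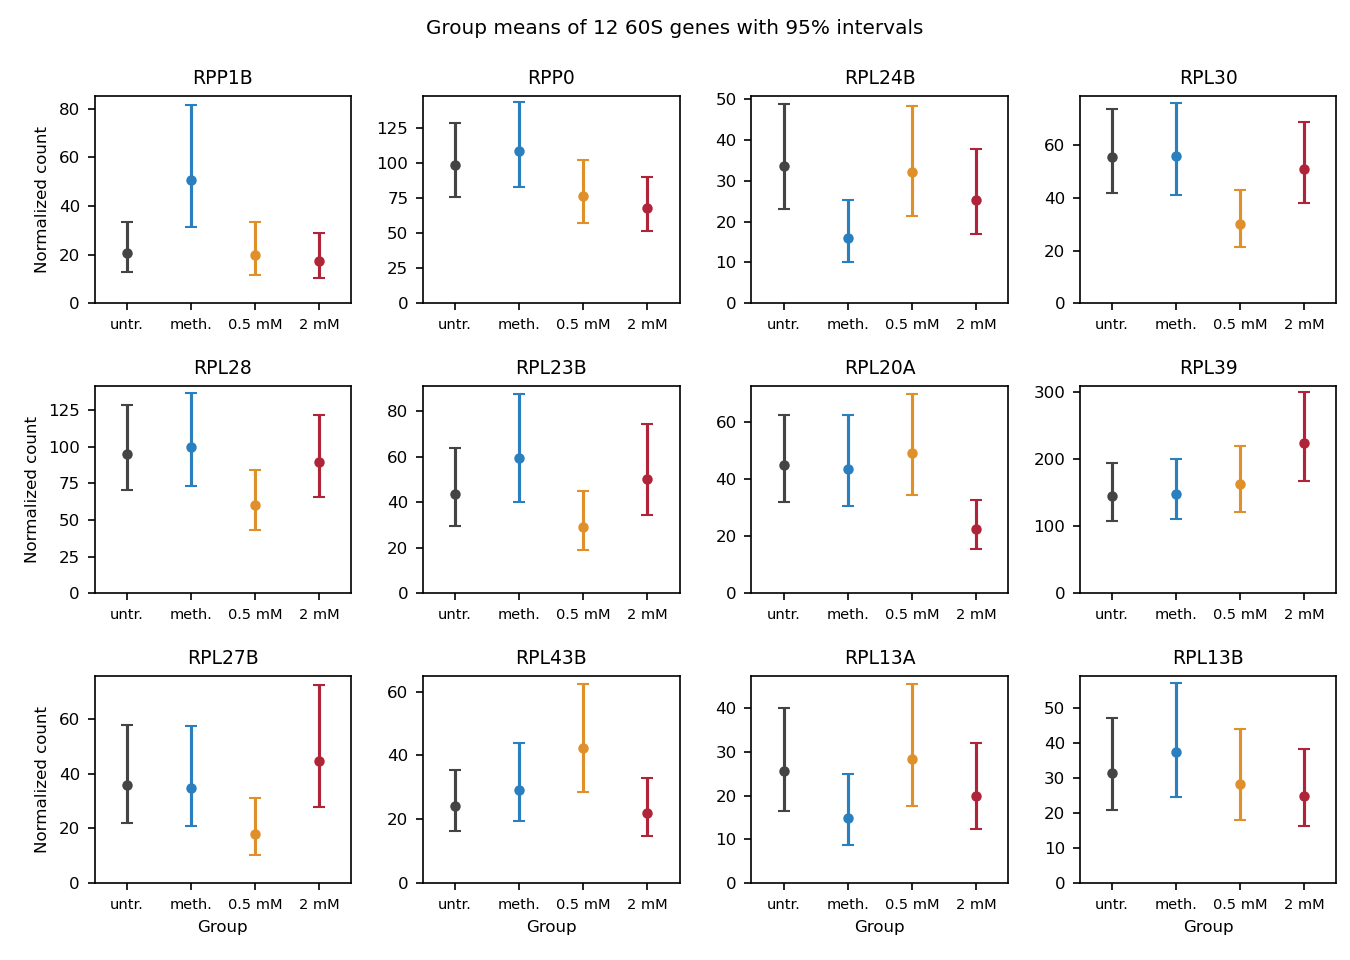
Group means (normalized counts, linear axis from 0) of 12 60S genes in untreated cultures, with methanol, and with 0.5 mM or 2 mM ABA, with 95% intervals from the fitted standard errors (3 libraries per group). RPP1B stands at 50.7 with methanol and between 17.2 and 20.6 in the other groups, RPL30 at 30.3 with 0.5 mM ABA and between 51.2 and 56.0 elsewhere, and RPL20A at 22.4 with 2 mM ABA and between 43.5 and 48.9 elsewhere.

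Taken by their place in the subunit, the 7 genes of the P stalk and GTPase centre had values below 0 throughout with 2 mM ABA. Their median was -0.49 against methanol (7 of 7 below 0, all features 0.01), -0.43 against untreated (7 of 7, all features 0.03) and -0.17 against 0.5 mM ABA (7 of 7, all features -0.02). These comparisons share the 2 mM libraries. Of the 60S genes as a whole, 54 of 78 were below 0 against methanol and 52 of 78 against untreated. The lower dose gave similar directions for the 7 genes. With 0.5 mM ABA their median was -0.33 against methanol (6 of 7 below 0) and -0.24 against untreated (7 of 7). RPP2A had group means of 60.9, 54.1, 43.1 and 39.3 normalized counts in untreated, methanol, 0.5 mM ABA and 2 mM ABA cultures. RPP0 had 99.1, 109, 76.7 and 68.3 in the same order, so its ABA means were the 2 lowest. RPP2B had 53.3, 60.3, 46.6 and 35.9. None of the 7 was called, and the intervals of the group means overlapped between all groups, except for RPP1B with methanol and with 2 mM ABA. The 9 genes of translation elongation factors in the tables, several of whose products reach the ribosome at the stalk, had medians of -0.35 against methanol (8 of 9 below 0) and -0.22 against untreated (8 of 9) with 2 mM ABA, with 0 genes at an unadjusted p under 0.05.

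Other small groups also had all their genes below 0 in some comparisons. Both L1 stalk genes were below 0 in the 3 comparisons of 2 mM ABA. Their medians were -0.39 against methanol, -0.30 against untreated and -0.18 against 0.5 mM ABA, so values below 0 throughout were not particular to the P stalk. In the larger groups the directions were mixed. The largest, 34 genes outside the named groups, had a median of -0.24 with 2 mM ABA against methanol (25 of 34 below 0). The 8 genes around the peptidyl transferase centre had a median of -0.05 with 2 mM ABA against methanol (4 of 8 below 0), and RPL29 kept between 64.3 and 71.2 normalized counts in the 4 groups. The 14 genes of the exit tunnel and its rim also had a median of -0.05 (8 of 14 below 0), with RPL25 at 60.3 in 2 mM ABA and between 43.2 and 49.1 elsewhere. The 6 bridge genes had 0.34 (2 of 6 below 0). The 3 genes of the 5S RNP had -0.17 (3 of 3 below 0), with RPL5 at 65.5, 65.9, 43.7 and 58.7 normalized counts in untreated, methanol, 0.5 mM and 2 mM ABA cultures. Against methanol the L1 stalk genes had -0.62 (RPL1A) and -0.17 (RPL1B), and both ubiquitin fusion genes were below 0 as well, at -0.39 for RPL40A and -0.31 for RPL40B. None of these was called.

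Genes with an intron, 53 of the 79, had medians close to those of the 26 without. They were 0.18 and 0.01 with methanol against untreated, -0.22 and -0.16 with 0.5 mM ABA against methanol, and -0.21 and -0.20 with 2 mM ABA against methanol. For the 28 genes with the motif and the 51 without it, the medians were 0.16 and 0.03, -0.16 and -0.23, and -0.23 and -0.17 (50 genes) in the same comparisons. The 11 genes without a duplicate had 0.08, -0.16 and -0.13. All had a negative median with ABA against methanol, as the 79 genes together did.

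Which copy of a pair had the higher level varied from pair to pair. Per kilobase of exon, A was higher in 18 of the 31 pairs and B in 13. The copies lay 1.65-fold apart at the median, over 2-fold apart in 8 pairs and under 1.5-fold apart in 14. The 95% interval of the log2 ratio of A to B excluded 0 in 19 of the 30 pairs that have an interval, and the same copy was higher in all 4 groups in 21 of the 31. The largest ratio was that of RPL22, with 104 normalized counts per kilobase for A and 8.65 for B, a log2 ratio of 3.59. Excess Rpl22 protein is known to hold back splicing of the RPL22B transcript. In RPL7 the ratio was 1.99 (1.49 to 2.49) and in RPL14 1.29 (0.78 to 1.81). RPL23 was the pair with the largest ratio towards B, at -1.37 (-1.83 to -0.90). The smallest ratios were those of RPL11 (-0.02), RPL24 (0.03), RPL40 (-0.05), RPL31 (0.11) and RPL34 (0.14). The order depends on the length used, as the ratio of RPL11 was 0.56 and that of RPL34 -0.49 in counts without a length correction.

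Reads placed at random can move counts between the copies of a pair. The 14 pairs with under 5% of windows shared lay 1.67-fold apart at the median and the 17 others 1.36-fold, and the part of shared reads in this was not tested. RPL4, with the most shared windows, still had a ratio of 0.77 (0.38 to 1.16), and RPL1 had -0.18 (-0.52 to 0.15). The RPP1 genes, which encode related P1 proteins, were 68.9% identical with no shared window and had a ratio of 1.22 (0.77 to 1.66). The RPP2 genes had 0.01 (-0.38 to 0.39). RPL7A and RPL7B each hold a snoRNA gene, snR39 and snR59, in an intron on the same strand. In all, 17 of the 81 genes overlap an annotated feature on the same strand and 39 a feature on the opposite strand, and the sources used here do not say whether strand was used in counting. RPL20A overlaps CUT787, a cryptic unstable transcript, by 153 bases, RPL43B overlaps SUT216, a stable unannotated transcript, by 92 and RPL13B overlaps YMR141C by 97, all on the same strand, and their part in the values of these genes was not tested.

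**Figure D4:**
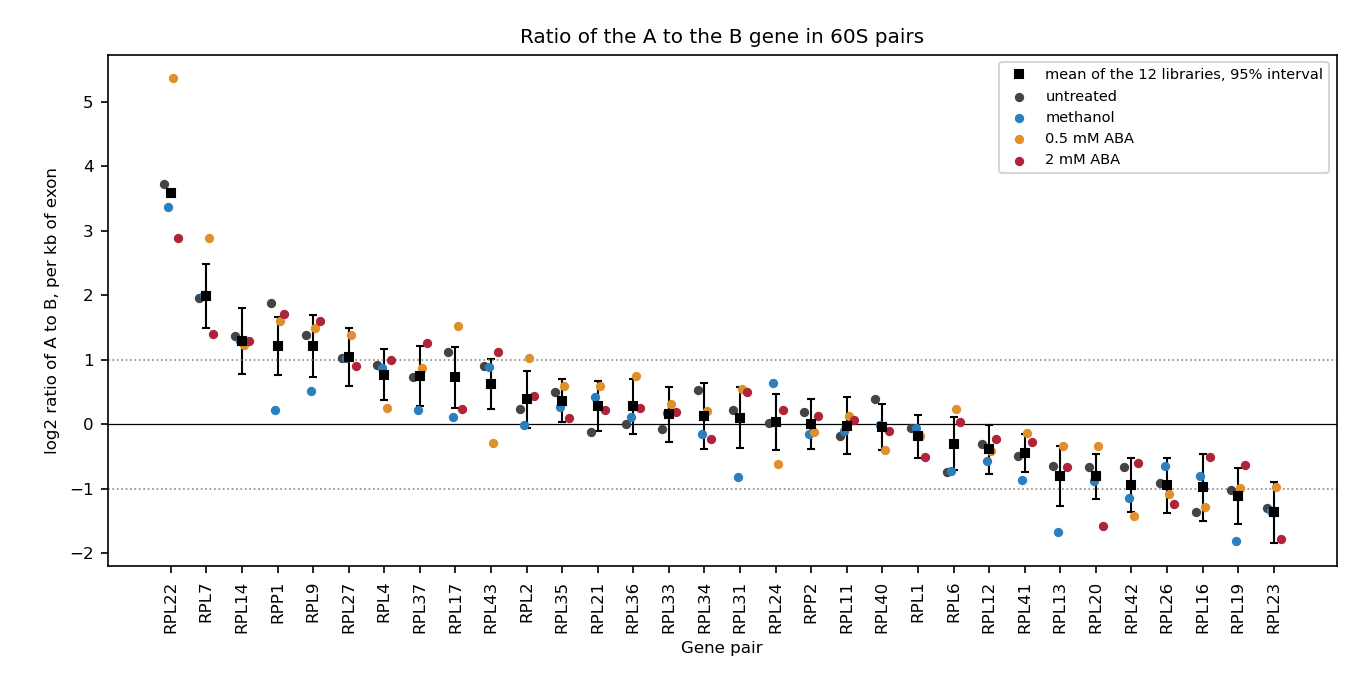
log2 ratio of the A to the B gene, in normalized counts per kilobase of exon, for 30 60S pairs and the RPP1 and RPP2 genes, ordered by ratio. Black squares are the mean of the 12 libraries with a 95% interval (none for RPL22, which lacks standard errors), coloured points the 4 groups, and dotted lines mark a 2-fold difference. RPL22 stands apart at 3.59.

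Few pairs had a shift in the ratio of A to B that was larger than its error. Taking the fold change of A less that of B, with the errors of the copies taken as independent, the 95% interval excluded 0 in 0 of 30 pairs for methanol against untreated, 3 for 0.5 mM ABA against methanol, 0 for 2 mM ABA against methanol, 1 for 0.5 mM ABA against untreated, 0 for 2 mM ABA against untreated and 3 for 2 mM against 0.5 mM ABA. These intervals are not adjusted for the number of pairs. RPL43 was among them in 3 comparisons that share the 0.5 mM libraries. Its B copy had 24.1, 29.2, 42.3 and 22.0 normalized counts in untreated, methanol, 0.5 mM and 2 mM ABA cultures, and its A copy 40.3, 48.5, 31.0 and 42.8, so B was the higher copy with 0.5 mM ABA alone. The difference of the fold changes was 1.41 (0.30 to 2.51) for 2 mM against 0.5 mM ABA. RPL20 had -1.24 (-2.25 to -0.23) in that comparison, where RPL20A had a fold change of -1.13 and RPL20B of 0.12 on the log2 scale, and RPL7 had -1.48 (-2.95 to -0.01). RPL17 and RPL31 had 1.41 and 1.36 for 0.5 mM ABA against methanol. Among the P1 genes, RPP1B had 50.7 with methanol while RPP1A had 47.6 against 61.1 in untreated cultures, a difference of -1.66 (-2.89 to -0.44). Where errors of the copies were added instead, as for a read gained by a copy and lost by the other, 0 of the intervals excluded 0. RPL17, RPL31 and RPL43 share no window, so traded reads give no reason to widen their intervals.

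The copies of a pair lay on opposite sides of 0 in 12 of 31 pairs for methanol against untreated, 20 for 0.5 mM ABA against methanol and 10 for 2 mM ABA against methanol. The count was 16 for 0.5 mM ABA against untreated, 15 for 2 mM ABA against untreated and 18 for 2 mM against 0.5 mM ABA. Of 23 pairs of 40S genes it was 13, 13, 13, 13, 11 and 10 in that order. With methanol against untreated, the 32 A copies and 32 B copies in the tables (RPL8B and RPL15A included) had medians of -0.01 and 0.18, and 16 A and 9 B copies had values below 0 (50.1% of all features). With 0.5 mM ABA against methanol the medians were 0.07 and -0.28, and 15 A and 27 B copies had values below 0 (49.3% of all features). With 2 mM ABA against methanol the medians were -0.15 and -0.30, and 19 of 32 A and 25 of 31 B copies had values below 0 (49.4% of all features). The medians were the same to 2 decimals, -0.14, with 2 mM ABA against untreated, and -0.05 with 2 mM against 0.5 mM ABA, while with 0.5 mM ABA against untreated they were 0.04 and -0.14.

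RPL13A and RPL13B, the anchor gene and its copy, are of interest because a tagged Rpl13A carries the target protein in anchor-away strains. RPL13A had group means of 25.7 normalized counts in untreated cultures, 14.9 with methanol, 28.3 with 0.5 mM ABA and 19.9 with 2 mM ABA. RPL13B had 31.5, 37.4, 28.2 and 24.99 in the same order. All intervals of the group means overlapped within each gene. The values of RPL13A were -0.79 (95% interval -1.78 to 0.20) with methanol against untreated, 0.93 (-0.09 to 1.94) with 0.5 mM ABA against methanol and 0.42 (-0.59 to 1.44) with 2 mM ABA against methanol. Against untreated cultures they were 0.14 (-0.80 to 1.08) at 0.5 mM and -0.36 (-1.30 to 0.58) at 2 mM ABA. None passed the test, and these intervals leave room for changes of well over 2-fold. Per kilobase, RPL13B was the higher copy in all 4 groups, with a log2 ratio of A to B of -0.80 (-1.26 to -0.34). The copies share almost no window of 50 bases, so few reads of that length would match both exactly.

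Genes that act on the 60S subunit from outside were sparse in the tables. Of 62 listed assembly factors, 13 had a row, and 0 were called. At an unadjusted p under 0.05, 3 of the 13 were lower with methanol against untreated (NMD3, the export adaptor of the 60S subunit, at -1.77, PUF6 at -2.42 and RRP5 at -1.31), and 1 was higher with 0.5 mM ABA against methanol (NMD3 at 2.14). Their mean counts were 6.42, 5.92 and 15.7. RRP5 was higher with 2 mM ABA against methanol, at 1.55, and PUF6 with 2 mM against 0.5 mM ABA, at 2.87, also by unadjusted p. Over all features 1.54% were lower in the comparison with untreated, and 4.03%, 5.83% and 3.07% higher in the other 3. The median of the list was -0.24 with methanol against untreated (11 of 13 below 0), 0.37 with 0.5 mM ABA against methanol (3 of 13 below 0) and 0.46 with 2 mM ABA against methanol (2 of 6 below 0). Of 4 chaperones of single 60S proteins only RRB1, which serves Rpl3, had a row, with values of -0.37 with methanol against untreated and 0.69 with 0.5 mM ABA against methanol. Of 6 transcription factors of ribosomal protein genes only HMO1 had a row, at -0.996 and 0.08 in these comparisons. Both had an unadjusted p above 0.05 throughout. For the strain, MFA1, MFA2 and STE2 of 6 a-specific genes had rows, with mean counts of 23.2, 29.9 and 19.0, and 0 of 3 alpha-specific genes and 0 of the 4 genes deleted in BY4741 had rows. Only 917 protein-coding features had a row, against 6664 annotated nuclear protein-coding genes, so a missing row says little of the strain. The NAB3-ABI strain of the study was built in BY4741, so these genes cannot tell them apart.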

How the data were processed

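RNA from 12 libraries, each with a forward and a reverse read file (24 files), had been sequenced after rRNA removal with Ribo-Zero Gold. The authors trimmed reads with Flexbar, collapsed identical reads, aligned them to R64-1-1 with Novoalign and counted them per feature with pyCRAC. The authors then ran DESeq2 and deposited 5 of its tables with an annotation. In each table the mean is a signal that the authors computed as counts over size factors, averaged across the 12 libraries. The log2 fold changes and standard errors, the Wald score, and each p-value and adjusted p-value were likewise deposited by the authors. Because single libraries have no values in these tables, their depth is unknown and no count model was run. Solved from the standard errors, the depth of the methanol group was 0.544 times that of the untreated group, that of the lower ABA dose 0.504 times and that of the higher dose 0.739 times.

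A table whose title names 2 mM ABA and untreated holds the difference of 0.5 mM ABA and methanol, as the sums of the other tables show, and stands for that pair here. For 2 mM ABA against untreated, fold changes and errors of 840 features were derived from the other tables, with a normal Wald p and Benjamini-Hochberg adjustment. Group means and variances were solved from the deposited pairs other than 0.5 mM ABA against untreated, which served as a check. This assumes that all deposited pairs come from a shared fit. Intervals span 1.96 standard errors to either side. The p-values rest on 3 colonies per group. The scripts were tested on simulated tables. Positions are those of the deposited annotation, and 6656 of 6656 nuclear start codons read ATG in the reference genome. Of 6 sets of identical rows, 0 held a 60S gene.

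The members and lists were chosen with earlier results of these data known. Named genes are RPL13A and RPL13B, those with the 5 highest and 5 lowest levels per kilobase, the 3 highest or lowest Wald scores or an unadjusted p under 0.05 in a pair, the most abundant of each role, the pairs with the most extreme ratios or sharing, the extremes of dispersion and the genes without a duplicate. One gene and its pair, although counted, are not reported here by themselves. Further genes named as examples were chosen after their values were seen. Alternatives changed the thresholds, the reference distribution, the features adjusted over, the centring, the length used, GC and length trends, and the error of ratios. The tools were scipy 1.17.1, matplotlib 3.10.9, pandas 2.3.3, biopython 1.88 and numpy 2.4.6 under Python 3.11.15.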

Additional observations from a re-analysis of the deposited data

How the results depend on the processing

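The count of 60S genes called was 0 in each of the 6 group pairs and stayed 0 under 7 alternatives: an adjusted p of at most 0.1, no fold minimum, protein-coding features alone, t distributions with 8 or 4 degrees of freedom, centring, and higher mean counts alone. The t distributions raise every p-value, so under them a count of 0 could not change. As no 60S gene had an adjusted p of 0.1 or less, dropping the fold minimum could not change it either. The count at 0.1 says no more than that. The median fold changes kept their sign in 38 of 38 alternative values, but not their size. They ran from 0.05 to 0.10 for methanol against untreated, -0.24 to -0.12 for 0.5 mM and -0.25 to -0.11 for 2 mM ABA against methanol, -0.15 to -0.07 for 0.5 mM and -0.20 to -0.11 for 2 mM ABA against untreated, and -0.06 to -0.00068 for 2 mM against 0.5 mM ABA, where the direction is thus hardly set. The median level per kilobase was 39.7 with the gene span, introns included, in place of the exon length (56.8). The median absolute log2 ratio of A to B was 0.50 in the 2 mM ABA group alone (0.73). With the standard errors of the copies added, the number of pairs whose ratio shifted was 0 for 0.5 mM ABA against methanol (3 otherwise), 0 for 0.5 mM ABA against untreated (1) and 0 for 2 mM against 0.5 mM ABA (3), since the intervals are then wider. This setting stands for reads traded between copies, which has no ground in RPL17, RPL31 and RPL43, whose copies share no window.

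No paired analysis was possible because the tables hold fitted values and none of single libraries, although each colony was grown in all 4 media. For the same reason no replicate was left out, and no sample was compared with the others of its group. The smallest mean in the tables was 2.51 normalized counts, and the median 60S gene had an interval of at least 1.71-fold to either side, and the absence of calls does not show that these genes were unchanged.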
